A study of Mus musculus with 16 samples.

Results

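Respiratory complex I is described here through its nuclear-encoded subunits. They were taken as the genes whose array symbol began with Ndufa, Ndufb, Ndufc, Ndufs, Ndufv or Ndufab followed by a digit, without the assembly factors. The rule found 36 genes among 18193 with a probe set of their own, a probe set being a group of short probes for 1 transcript. Of these, 35 were bright enough to be tested among 10916 genes. The arrays carried left ventricular total RNA of 16 mouse samples, 4 in each of 4 groups, collected 28 days after surgery. WT sham and WT TAC were wild-type mice, sham-operated or given TAC (transverse aortic constriction), in which a band narrows the aorta and raises the pressure load of the ventricle. KO sham and KO TAC were PPARalpha-/- mice, which lack the nuclear receptor PPARalpha, after the same operations. The labels do not say that samples of a group are different animals; p-values then reflect only how these samples vary, and that variation could be technical. Strain, age and sex were not given in the sources used here.

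Complex I, NADH:ubiquinone oxidoreductase, is the entry point of electrons from NADH into the respiratory chain. It is an L-shaped assembly in the inner mitochondrial membrane: a matrix arm oxidises NADH and passes electrons through iron-sulfur clusters to ubiquinone, and a membrane arm pumps protons. Core subunits carry out this chemistry, and accessory subunits surround and stabilise them. The heart depends on the complex heavily, because it makes most of its ATP by oxidative phosphorylation. PPARalpha is a transcription factor best known for genes of fatty acid oxidation, whose NADH complex I consumes.

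By role, the genes measured were 6 core subunits, 8 accessory subunits of the matrix arm, 8 of the proximal membrane arm, 11 of the distal membrane arm, and Ndufab1, the mitochondrial acyl carrier protein. The rule also took 2 genes that were in none of these lists: Ndufa4, whose product is now counted with cytochrome c oxidase, and its relative Ndufa4l2. Ndufa11 and Ndufs6 had no probe set of their own. Ndufb4, a distal membrane arm subunit, was represented only by a dim probe set with a mean log2 signal of 5.65, and it fell below the filter on dim genes.

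The array signal of the subunits was high. Of the 35 tested genes, 33 lay in the brightest 10% of all tested genes, and their mean log2 signals ran from 13.80 for Ndufs4 to 16.02 for Ndufa12. The median over all tested genes was 9.32. The exceptions were Ndufb1 at 10.48 and Ndufa4l2 at 9.85. Signals of different probe sets depend on their probes, so these values place the genes within the range of scaled array signals and do not rank their RNA amounts.

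Promoters are shown for 4 subunits: Ndufv1, Ndufa3 and Ndufv3, the genes that passed the test in a comparison, and Ndufa6, an example of a window that holds a searched motif, chosen after the matches were seen. Each is the 250 bases before the annotated start, 5′ to 3′, from RefSeq on GRCm38.p6, and capitals mark a searched motif. The windows lie at chr19:4012756-4013005 on the minus strand for Ndufv1, chr7:3617123-3617372 on the plus strand for Ndufa3, chr17:31519865-31520114 on the plus strand for Ndufv3 and chr15:82354292-82354541 on the minus strand for Ndufa6.
Ndufv1: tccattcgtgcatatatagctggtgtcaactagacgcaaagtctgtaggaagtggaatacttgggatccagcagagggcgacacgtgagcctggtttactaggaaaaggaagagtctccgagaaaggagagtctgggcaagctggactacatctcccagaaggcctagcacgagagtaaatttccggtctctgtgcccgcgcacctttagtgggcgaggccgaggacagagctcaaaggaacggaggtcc
Ndufa3: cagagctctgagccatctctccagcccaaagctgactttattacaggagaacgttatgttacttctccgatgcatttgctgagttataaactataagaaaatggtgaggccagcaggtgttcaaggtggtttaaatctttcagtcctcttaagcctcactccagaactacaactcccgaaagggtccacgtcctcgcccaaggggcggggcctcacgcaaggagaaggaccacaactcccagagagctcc
Ndufv3: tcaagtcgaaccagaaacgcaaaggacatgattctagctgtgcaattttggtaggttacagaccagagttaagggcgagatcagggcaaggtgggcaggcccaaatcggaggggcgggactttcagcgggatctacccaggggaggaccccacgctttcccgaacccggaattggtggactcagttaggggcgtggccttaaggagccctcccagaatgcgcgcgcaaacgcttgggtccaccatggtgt
Ndufa6: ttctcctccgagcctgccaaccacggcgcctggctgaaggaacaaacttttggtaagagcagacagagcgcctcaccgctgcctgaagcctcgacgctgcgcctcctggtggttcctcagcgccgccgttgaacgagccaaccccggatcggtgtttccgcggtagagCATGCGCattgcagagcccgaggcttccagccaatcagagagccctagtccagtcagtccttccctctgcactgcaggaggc

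Motifs were searched on both strands for regulators of mitochondrial genes. Of the 36 genes, 32 had a promoter entry in the part searched, with 34 windows of 250 bases. The subunit search skipped a chromosome that the set of all windows kept, so a gene there would count as having no entry. The NRF1 core GCGCATG occurred in 8.82% of these windows and in 3.24% of all 32851 promoter windows of that length. In Ndufa6 it stood on the reverse strand, from 82 to 76 bases before the start, and the other carriers were Ndufa8 and Ndufb6. The ETS site CCGGAAG, which GABP can bind, was found for Ndufb6, Ndufb7 and Ndufs3, in 8.82% of subunit windows and 6.91% of all. The ERR site AAGGTCA was found for Ndufb2, Ndufb4 and Ndufs5, in 8.82% and 4.08%. The PPAR/RXR direct repeat was in 0 subunit windows and in 0.338% of all windows. These matches describe letters in a short window only, and Ndufv1, Ndufa3 and Ndufv3 held none of the searched motifs there.

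The arrays were first compared as a whole. Ppara, the deleted gene, ranged from 10.44 to 11.17 in log2 signal on the WT arrays and from 8.60 to 9.51 on the KO arrays. The genotypes did not overlap, although the sources used here do not say whether its probes target deleted sequence. Each array had been scaled by the authors to a common trimmed mean, but array medians still ran from 108.3 on KO TAC replicate 2 to 163 on WT TAC replicate 3. The mean log2 signal of 9 hybridisation spike-in probe sets was lowest on KO TAC replicates 3 and 2, where it did not exceed 12.13, and highest on WT TAC replicate 3, at 13.04. Of 9 cardiomyocyte markers, all were tested, and their summed signal was 425000 to 496000 in WT sham, 500000 to 669000 in WT TAC, 470000 to 543000 in KO sham and 406000 to 495000 in KO TAC. Summed signal of 7 fibroblast markers was 41400 to 44300, 42800 to 56200, 40100 to 46900 and 62500 to 70100 in the same order. The 3 adipocyte markers with a probe set were all below the filter.

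The subunits followed the group and the array together. Averaged over the 35 genes and set relative to the WT sham mean, the log2 level of the WT sham arrays lay between -0.03 and 0.03, and that of the WT TAC arrays between 0.02 and 0.11. KO sham arrays ranged from -0.09 to 0.14. The KO TAC arrays were at 0.00, -0.19, -0.26 and -0.13, so that replicate 1 stood at the level of WT sham and the other 3 below every other array. Group means were 0.00 ± 0.03, 0.08 ± 0.04, 0.04 ± 0.10 and -0.15 ± 0.11 (SD, n = 4). Of the 35 genes, 33, 34 and 31 lay below their WT sham mean on KO TAC replicates 2, 3 and 4, and 17 did on replicate 1. KO TAC replicates 2 and 3 were also the arrays with the lowest medians and spike-in signals; the part of either in the subunits' level was not tested.

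**Figure D1:**
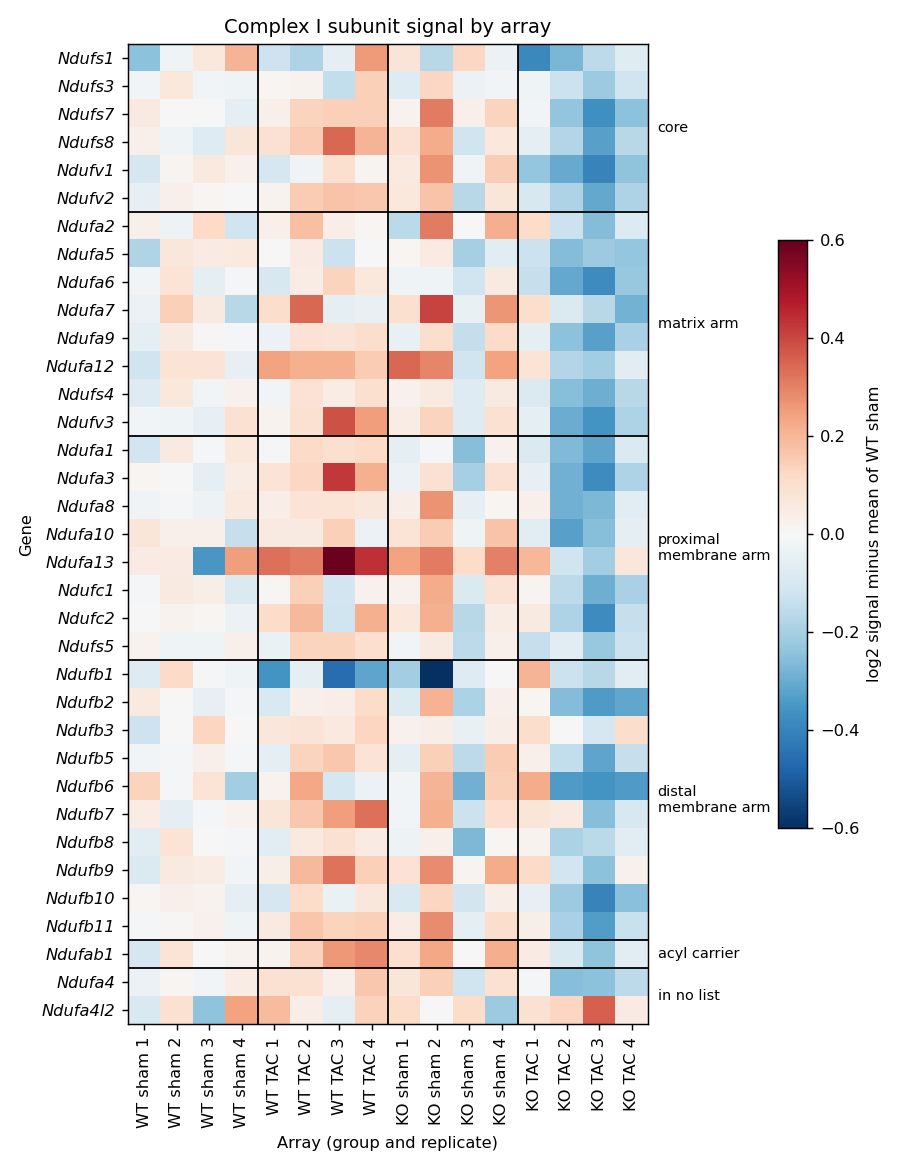
Each cell is the log2 signal of 1 gene (rows, ordered by role) on 1 array (columns, ordered by group and replicate), minus that gene's WT sham mean; red is higher and blue lower, with colours saturating at 0.6 log2 units. KO TAC replicates 2 to 4 are blue for most rows, while KO TAC replicate 1 is paler, and Ndufb1 is blue on the WT TAC arrays, where most rows are red.

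The first comparison asked what loss of PPARalpha did to the subunits in the unloaded heart. In KO sham against WT sham, 0 subunits passed the test (limma, Benjamini-Hochberg adjusted p under 0.05 over all tested genes), beside 0.742% of all tested genes. At an unadjusted p under 0.05 there were 0 as well, beside 8.52% of all genes. Fold changes ran from -0.25 to 0.24 on the log2 scale, with 23 of 35 above 0, beside 54.4% of all genes, and their median was 0.03 beside 0.02 for all genes. The extremes were Ndufb1, at -0.25 ± 0.15 (SE), and Ndufa13, also known as GRIM-19, at 0.24 ± 0.13 with an adjusted p of 0.663. The KO sham arrays lay wholly below the WT sham arrays for 0 subunits, beside 2.62% of all genes, and wholly above for 0, beside 3.29%. After each array was centred on its median, the members' median was -0.02 beside -0.03 for all genes, a distance of 0.01. Centring shifts every gene of an array alike, so this distance could not differ from that at the authors' scaling. After quantile normalization the members' median was -0.05 beside 0.01, a distance of -0.06.

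Etfdh was lower on the KO arrays by more than their spread. It encodes the electron transfer flavoprotein dehydrogenase, which delivers electrons from fatty acid oxidation to ubiquinone without passing through complex I. Its log2 signal was 13.91 to 14.19 in WT sham, 14.05 to 14.30 in WT TAC, 12.90 to 13.21 in KO sham and 12.79 to 13.07 in KO TAC. All KO arrays were below all WT arrays. The change was -1.07 ± 0.11 in sham (adjusted p = 5.29e-05, limma) and -1.17 ± 0.11 in TAC (adjusted p = 1.30e-05). Averaging all its probe sets gave -0.76 with an adjusted p of 0.27 in TAC. The TAC response of Etfdh was 0.02 ± 0.11 in WT and -0.08 ± 0.11 in KO.

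In wild-type mice, 28 days of TAC left the subunits slightly higher at the authors' scaling. Of 35 genes, 31 were above 0, beside 50% of all tested genes. Their median was 0.08, beside 0.00 for all genes and 0.03 for the brightest 10% of tested genes. None was called by limma and 1 had an unadjusted p under 0.05, in a comparison where 0% of all genes were called and 7.62% had an unadjusted p under 0.05. Median centring moved the median of all genes to -0.12 and that of the members to -0.04. The distance of 0.08 is fixed under centring, which shifts every gene of an array alike. After quantile normalization the members' median was -0.06 beside -0.01 for all genes, a distance of -0.05, so the direction relative to all genes turned under that scaling. The arrays of WT TAC lay wholly above those of WT sham for 6 subunits, Ndufa3, Ndufa12, Ndufa13, Ndufb7, Ndufb11 and Ndufs8, which compares with 2.64% of all genes.

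Ndufa13 had the smallest p of the subunits here. It belongs to the proximal membrane arm. On the WT sham arrays its log2 signal was 15.67, 15.67, 15.27 and 15.87, and on the WT TAC arrays 15.95, 15.93, 16.21 and 16.06. The groups did not overlap, but WT sham replicate 3 lay well below the other WT sham arrays. The difference was 0.42 ± 0.13 (adjusted p = 0.58, limma), and it did not pass the test. KO sham arrays were at 15.86, 15.93, 15.73 and 15.92 and KO TAC arrays at 15.82, 15.50, 15.41 and 15.69.

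In PPARalpha-/- mice, TAC went with lower subunit signal at the authors' scaling, by a small amount. Of 35 genes, 32 were below 0, beside 50% of all genes. The subunits' median was -0.22, a 1.16-fold lower signal, beside 0.00 for all genes. It was -0.07 for the brightest 10% of tested genes, which hold 33 of the subunits. The subunits' middle quartiles were -0.24 and -0.16. A single subunit, Ndufv1, was called lower, beside 0.98% of all tested genes. An unadjusted p under 0.05 in the lower direction was reached by 17 subunits, beside 7.98% of all genes. In 5 subunits, Ndufa6, Ndufa10, Ndufs4, Ndufs7 and Ndufv1, every KO TAC array was below every KO sham array, beside 5.35% of all genes.

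Among the core subunits, 6 of 6 were below 0 and 1 passed the test, with a median of -0.24. Ndufv1 binds NADH and the flavin that takes its electrons. Its log2 signal was 14.95, 15.16, 14.87 and 15.04 on the KO sham arrays and 14.66, 14.59, 14.49 and 14.65 on the KO TAC arrays. WT sham arrays were at 14.79, 14.91, 14.95 and 14.92 and WT TAC arrays at 14.79, 14.87, 14.99 and 14.91. All 4 KO TAC arrays, replicate 1 included, were the lowest of the 16. The change from KO sham was -0.41 ± 0.09 (adjusted p = 0.0243, limma), and the gene's other probe sets gave -0.37 and -0.22.

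The call on Ndufv1 held in 10 of 19 alternatives. It was lost after median centring (-0.28, adjusted p = 0.298) and held after quantile normalization (-0.27, adjusted p = 0.0493). Without KO TAC replicate 2 or 3, or KO sham replicate 2 or 4, the adjusted p was 0.0708, 0.0787, 0.0767 and 0.0698. Ndufs7, which carries the iron-sulfur cluster nearest ubiquinone, was second among the core subunits at -0.34 ± 0.10 (adjusted p = 0.0762). Its KO TAC arrays ran from 14.62 to 14.97 and its KO sham arrays from 15.01 to 15.30. Ndufs8 and Ndufv2 were at -0.25 ± 0.10 and -0.23 ± 0.09, and Ndufs1 and Ndufs3 were at -0.22 ± 0.13 and -0.12 ± 0.09. The other probe sets of Ndufv2 gave -0.21 and 0.13.

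In the matrix arm, 8 of 8 accessory subunits were below 0, with a median of -0.23 and 0 called; 6 had an unadjusted p under 0.05. They ran from -0.29 ± 0.13 for Ndufa7 to -0.16 ± 0.09 for Ndufa5. Ndufa6, a protein of the LYR family that binds the acyl carrier protein, was at -0.23 ± 0.09, with KO TAC arrays from 14.17 to 14.41 and KO sham arrays from 14.43 to 14.60. Ndufs4, whose loss destabilises the NADH-oxidising module, was at -0.22 ± 0.08. In the proximal membrane arm, 8 of 8 were below 0, with a median of -0.21, 0 called and 3 at an unadjusted p under 0.05. Ndufa10 was lowest there, at -0.27 ± 0.09, but its dimmer probe set, with a mean log2 signal of 10.46, gave 0.34.

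The distal membrane arm was more mixed. Of its 10 tested subunits, 8 were below 0, 0 were called and 2 had an unadjusted p under 0.05, with a median of -0.18. Ndufb11 was at -0.25 ± 0.10, whereas Ndufb8 was at -0.03 ± 0.09 and Ndufb3 at 0.01 ± 0.08. Ndufb1 was highest, at 0.21 ± 0.15. Ndufab1, which serves both complex I and mitochondrial fatty acid synthesis, was at -0.22 ± 0.10. Ndufa4 was at -0.22 ± 0.09 and Ndufa4l2, a relative known to be induced by hypoxia, at 0.16 ± 0.12.

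Ndufb1 had the lowest fold change of the tested subunits in KO sham against WT sham and in WT TAC against WT sham, and the highest in the other comparisons, and it passed no test. Its log2 signal was 10.55, 10.74, 10.62 and 10.60 in WT sham and 10.27, 10.57, 10.17 and 10.31 in WT TAC. In KO sham it was 10.42, 9.91, 10.55 and 10.63, and in KO TAC 10.83, 10.50, 10.46 and 10.56. The groups overlapped in each pair compared; of the WT TAC arrays, replicate 2 alone came within the WT sham range. Its TAC response was -0.30 ± 0.15 in WT and 0.21 ± 0.15 in KO, a difference of 0.51 ± 0.21 (adjusted p = 0.434, limma).

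**Figure D2:**
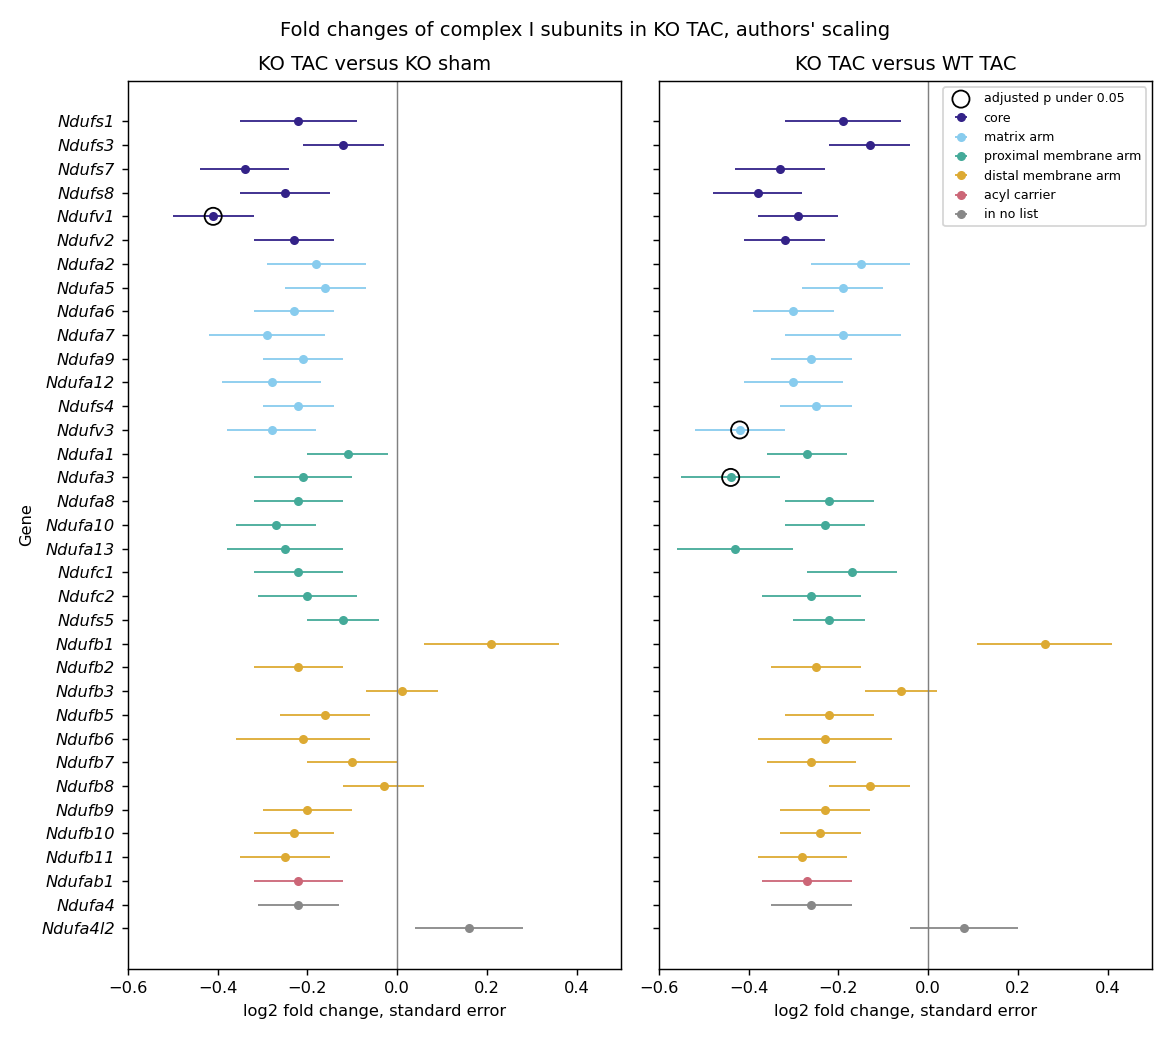
Points are log2 fold changes of 35 genes (rows, coloured by role) with standard errors from limma, for KO TAC against KO sham (left) and against WT TAC (right), 4 arrays a group; rings mark an adjusted p under 0.05. On the left 32 and on the right 33 of 35 points lie below 0, the ringed genes are Ndufv1 on the left and Ndufa3 and Ndufv3 on the right, and Ndufb1 lies to the right of 0 in both panels.

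Under TAC, subunit signal was lower in PPARalpha-/- than in wild-type ventricles at the authors' scaling. KO TAC and WT TAC arrays were compared directly; this comparison shares the KO TAC arrays with the previous one, so the values are given side by side and are not independent. Of 35 subunits, 33 were below 0, beside 45.5% of all genes. Their median was -0.25, a 1.19-fold lower signal, beside 0.03 for all genes and -0.07 for the brightest 10% of tested genes. Ndufa3 and Ndufv3 were called lower, beside 1.14% of all genes. An unadjusted p under 0.05 was reached by 25 subunits, all lower, beside 7.63% of all genes. In 18 subunits every KO TAC array was below every WT TAC array, beside 4.42% of all genes.

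Ndufa3 is a small accessory subunit of the proximal membrane arm. Its log2 signal was 15.69, 15.73, 16.03 and 15.82 on the WT TAC arrays and 15.56, 15.32, 15.23 and 15.42 on the KO TAC arrays. WT sham arrays were at 15.62, 15.61, 15.55 and 15.65 and KO sham arrays at 15.57, 15.70, 15.41 and 15.70. The TAC groups did not overlap, with WT TAC replicate 3 the highest and KO TAC replicate 3 the lowest array. The difference was -0.44 ± 0.11 (adjusted p = 0.0424, limma). The gene's other bright probe set also gave -0.44, and a dim one with a mean log2 signal of 7.02 gave 0.73.

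Ndufv3 is an accessory subunit beside the flavoprotein at the tip of the matrix arm. It was at 15.46, 15.53, 15.82 and 15.69 in WT TAC and at 15.38, 15.14, 15.08 and 15.25 in KO TAC. In WT sham it was at 15.42, 15.41, 15.39 and 15.53, and in KO sham at 15.48, 15.57, 15.36 and 15.53. As for Ndufa3, the TAC groups did not overlap, WT TAC replicate 3 was the highest array and KO TAC replicate 3 the lowest. The difference was -0.42 ± 0.10 (adjusted p = 0.0439, limma).

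Both calls depended on the processing. Ndufa3 was called in 4 and Ndufv3 in 6 of 19 alternatives. After median centring they were at -0.24 (adjusted p = 0.222) and -0.22 (adjusted p = 0.247), and after quantile normalization at -0.19 (0.21) and -0.18 (0.249). With 1 array left out at a time, Ndufa3 stayed called only without KO TAC replicate 1 (adjusted p = 0.0321). Without WT TAC replicates 1 to 4 its adjusted p was 0.0505, 0.0639, 0.0957 and 0.0979, and without KO TAC replicates 2 to 4 it was 0.131, 0.135 and 0.0769. Ndufv3 stayed called without KO TAC replicate 1 or WT TAC replicate 1 (0.0341 and 0.0418). Without WT TAC replicates 2 to 4 its adjusted p was 0.0637, 0.0994 and 0.112, and without KO TAC replicates 2 to 4 it was 0.137, 0.138 and 0.0769.

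By role, 6 of 6 core subunits were below 0 against WT TAC, with a median of -0.31 and 0 called. By the brightest probe sets, Ndufs8 was lowest, at -0.38 ± 0.10 (adjusted p = 0.053), followed by Ndufs7 at -0.33 ± 0.10 (0.0898) and Ndufv2 at -0.32 ± 0.09 (0.0789). Other probe sets of Ndufs8 gave -0.38, -0.33, -0.29, -0.25 and -0.15. The last had a mean log2 signal of 15.24, beside 15.25 for the brightest. For Ndufv2 the other probe sets gave -0.30 and -0.01, the latter with a mean log2 signal of 14.15. Ndufv1 was at -0.29 ± 0.09 (adjusted p = 0.104), so it missed the threshold here. Its other probe sets gave -0.33 and -0.07, with mean log2 signals of 14.65 and 14.67. The matrix arm accessory subunits were all below 0, 1 of 8 called, with a median of -0.26, and those of the proximal membrane arm were all below 0, 1 of 8 called, with a median of -0.24. Of the distal membrane arm, 9 of 10 were below 0 and 0 called, with a median of -0.23. Ndufa13 was at -0.43 ± 0.13 (adjusted p = 0.104), its TAC groups without overlap.

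**Figure D3:**
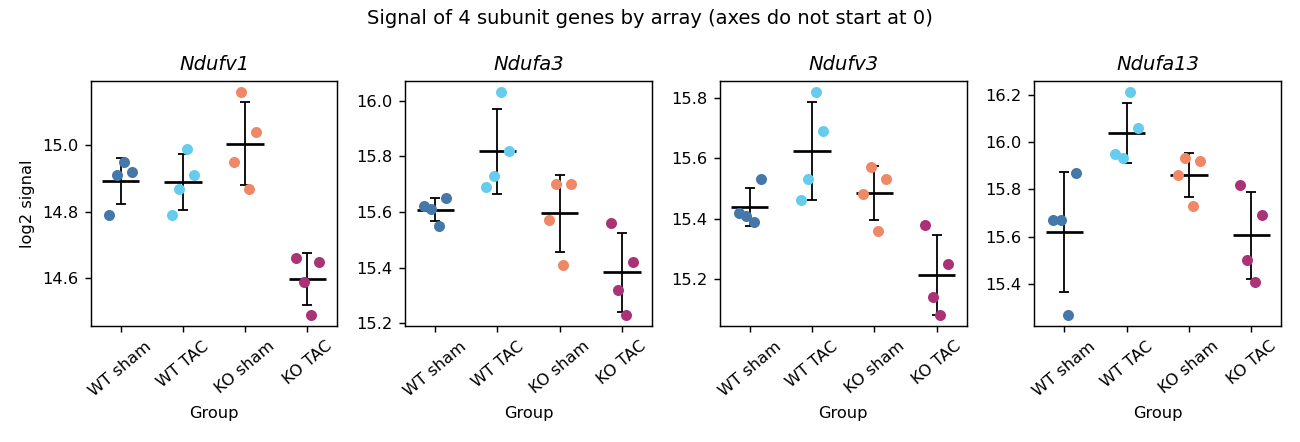
Points are log2 signals on single arrays for 4 subunit genes, by group; lines are group means and bars the SD over 4 arrays, and the axes do not start at 0. For Ndufv1 the 4 KO TAC arrays, from 14.49 to 14.66, lie below all others, while for Ndufa3, Ndufv3 and Ndufa13 the WT TAC points lie above most or all WT sham points and the KO TAC points overlap with KO sham.

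The TAC responses of the genotypes were then compared through the interaction. The median over the subunits was -0.27, beside 0.01 for all genes and -0.09 for the brightest 10% of tested genes. Of 35 subunits, 33 were below 0, beside 49% of all genes. None was called, as were 0% of all genes; 17 had an unadjusted p under 0.05, of which 16 were lower, beside 10.3% and 5.59% of all genes. The most extreme were Ndufa13, at -0.67 ± 0.18 (adjusted p = 0.29, limma), and Ndufb1, at 0.51 ± 0.21.

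The subunits' fold changes shrank under other array scalings. Subtracting each array's median, which brings the middle of all arrays to 1 level, moved the members' median to -0.09 for KO TAC against KO sham and to -0.06 against WT TAC. It moved the median of all genes up to 0.13 and 0.22. The distance between the members and all genes stayed at -0.22 and -0.28, since centring shifts every gene of an array alike. After quantile normalization, which gives all arrays the same distribution of signal, that distance was -0.07 and -0.10. Of the 35 subunits, 27 and 28 remained below 0 after centring, beside 30.9% and 21.5% of all genes, and 27 and 26 after quantile normalization, beside 49% and 45.4%. Each gene's brightest probe set was picked again after quantile normalization, so a value could also move through a change of probe set. Ndufs8 went from -0.38 to 0.06 against WT TAC. The part of such changes was not tested. After centring 0 subunits were called lower in either comparison, beside 0.165% and 0.366% of all genes. After quantile normalization 1, Ndufv1, was called against KO sham and 0 against WT TAC, beside 1.09% and 0.999%.

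The per-array means showed the same dependence. Relative to WT sham, the group means ± SD (n = 4) after centring were 0.00 ± 0.05, -0.04 ± 0.18 for WT TAC, -0.02 ± 0.14 for KO sham and -0.08 ± 0.08 for KO TAC. After quantile normalization they were 0.00 ± 0.01, -0.04 ± 0.04, -0.05 ± 0.00 and -0.11 ± 0.03. KO TAC had the lowest mean under each scaling, but after centring the means differed by less than the SD of WT TAC. WT TAC replicate 3 changed most, from 0.09 to -0.27, and it had the highest array median. Without that array and KO TAC replicates 2 and 3, the members' median was -0.13 for KO TAC against KO sham and -0.18 against WT TAC, with 0 called.

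**Figure D4:**
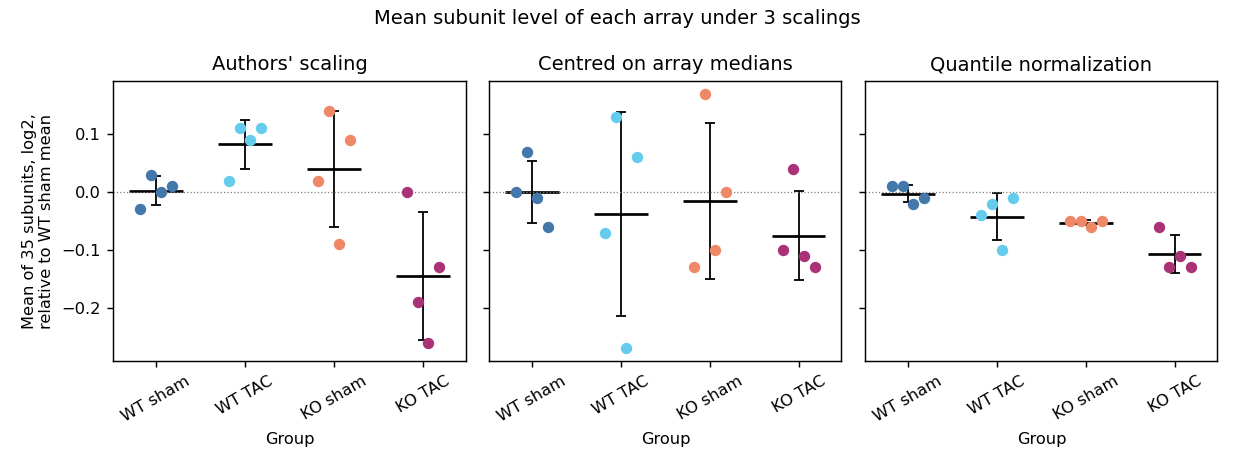
Each point is the mean log2 level of 35 subunit genes on 1 array, relative to the WT sham mean, under the authors' scaling, after centring on array medians and after quantile normalization; lines and bars are group means and SD (n = 4). The KO TAC mean moves from -0.15 to -0.08 and -0.11, and WT TAC moves from above to below WT sham.

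Other bright probe sets mostly gave similar values. There were 28 other probe sets with a mean log2 signal of at least 11, for 17 of the genes. Of these, 27 were below 0 in KO TAC against KO sham, with a median of -0.20, and 27 against WT TAC, with a median of -0.23. They share the arrays and, in part, the transcripts of the first probe sets, so they are no added replicates. When each of 20967 probe sets was tested on its own, 0 of 75 subunit probe sets were called by limma in either comparison, beside 1.14% and 1.31% of all probe sets. At an unadjusted p under 0.05 there were 24 and 36, of which 23 and 36 were lower, beside 13.4% and 14.8% of all probe sets in either direction. Ndufa10's dimmer probe set, at 10.46, was higher in KO TAC against KO sham, at 0.34 ± 0.12 (adjusted p = 0.238, limma). In KO sham against WT sham it was lower, at -0.50 ± 0.12 (adjusted p = 0.16, limma).

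Other parts of the respiratory chain were set beside complex I. Complexes II to V gave 40 tested genes, with 39 below 0 in both KO TAC comparisons and medians of -0.23 against KO sham and -0.32 against WT TAC. Of these, 1 and 0 were called: Atp5g2, which encodes a membrane ring subunit of ATP synthase, was at -0.36 ± 0.09 against KO sham (adjusted p = 0.0385, limma; called in 6 of 19 alternatives). Its log2 signal was 14.75 to 14.95 in KO sham and 14.40 to 14.64 in KO TAC. ND5, a complex I core subunit encoded in mitochondrial DNA, was at -0.17 ± 0.15 and -0.42 ± 0.15 (adjusted p = 0.634 and 0.168); the other mitochondrially encoded subunits are not analysed here.

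Assembly factors help to build the complex and do not stay in it. The 13 assembly factors had medians of -0.03 and -0.09 in the same comparisons, with 9 of 13 below 0 in both and 0 called by limma; 1 and 2 had an unadjusted p under 0.05. Ecsit was at -0.25 ± 0.10 against KO sham, and Ndufaf6 was at 0.38 ± 0.15 and Ndufaf2 at -0.32 ± 0.13 against WT TAC. Aifm1 and Chchd4, which import some subunits, were not called. Mitochondrial ribosomal proteins, 76 genes, had medians of -0.08 and -0.05, and 46 cytosolic ribosomal proteins -0.16 and -0.10. These differences between lists were not tested. After median centring, which moved the median of all genes to 0.13 and 0.22, the assembly factors were at 0.10 and 0.10, the mitochondrial ribosomal proteins at 0.05 and 0.14 and the cytosolic ones at -0.04 and 0.09, all below it. After quantile normalization the cytosolic ribosomal proteins were at 0.05 against WT TAC, beside 0.03 for all genes.

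**Figure D5:**
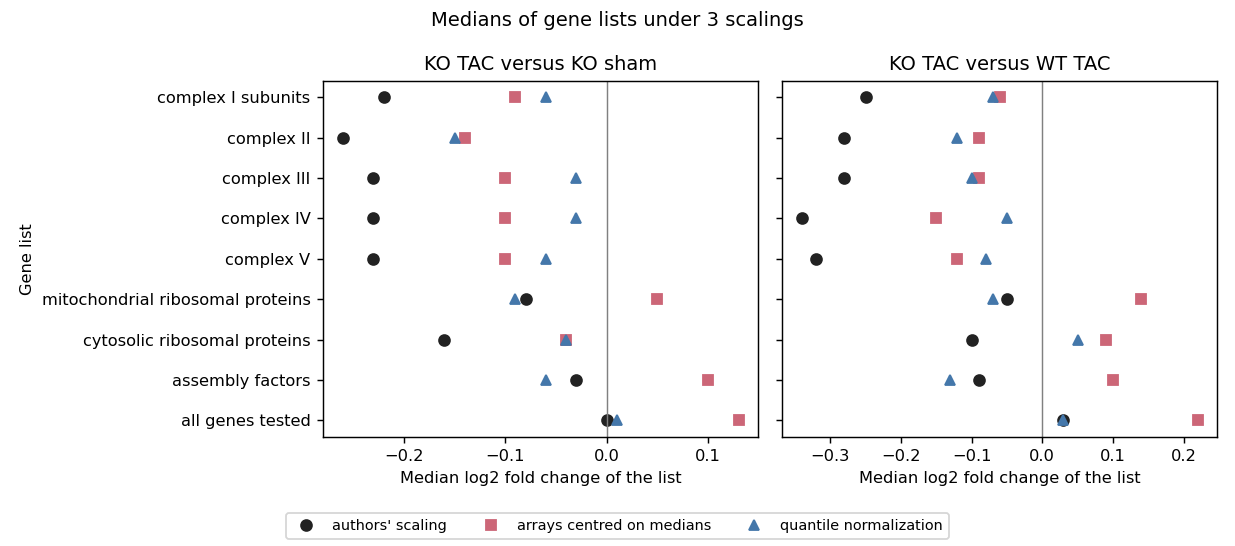
Points are medians of log2 fold changes over the genes of each list (rows) for KO TAC against KO sham (left) and against WT TAC (right), under 3 scalings marked by shape. Complex I lies near complexes II to V under each scaling, all lie below all genes tested, and the distance narrows after quantile normalization.

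Of 5 genes for other routes to ubiquinone, 2 were called lower in KO TAC against KO sham, beside 0.98% of all tested genes. Dhodh, which oxidises dihydroorotate in pyrimidine synthesis, was at 8.67 to 9.29 in KO sham and 8.07 to 8.59 in KO TAC, a change of -0.68 ± 0.15 (adjusted p = 0.0311, limma). Sqor, which oxidises sulfide, was at 11.23 to 11.34 and 10.80 to 10.91, a change of -0.41 ± 0.08 (adjusted p = 0.0181). In each gene the groups did not overlap. Median centring ended both calls, with -0.55 (adjusted p = 0.211) and -0.29 (adjusted p = 0.327). They were called in 6 and 11 of 19 alternatives, and another choice of probe set gave -0.24 for Dhodh. Dhodh was also lower with TAC in WT, at -0.44 ± 0.15 (adjusted p = 0.585, limma). Its log2 signal was 8.95 to 9.03 in WT sham and 8.37 to 8.82 in WT TAC, without overlap. Sqor changed by -0.08 ± 0.08 in WT. The difference between the TAC responses of KO and WT was called for neither gene.

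Among 13 regulators of mitochondrial genes, Ppara was the only one called in any comparison. Ppargc1a, which encodes the coactivator PGC-1alpha, was at -0.29 ± 0.22 for KO TAC against KO sham and -0.43 ± 0.22 against WT TAC. Esrra, the estrogen-related receptor alpha that works with it, was at -0.41 ± 0.16 for TAC against sham in each genotype, with adjusted p-values of 0.621 in WT and 0.222 in KO. Esrrg was at 0.30 ± 0.15 against WT TAC.

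Markers of some other cell types differed in the same comparisons. In KO TAC, 4 of 7 fibroblast markers were called higher against KO sham and against WT TAC, Col1a2, Col3a1, Lum and Postn, with list medians of 0.86 and 0.64. The share of all tested genes called higher is not given here. Of 6 macrophage markers, C1qa was called higher against WT TAC. Endothelial markers had medians of 0.11 and 0.12, and those of smooth muscle and pericytes 0.21 and -0.40, with 0 called in either list. Nppa, an atrial gene that the loaded ventricle is known to re-express, was called higher in both. It was the only one called of 4 atrial markers, whose list medians were -1.14 and 2.20. The 9 cardiomyocyte markers had medians of -0.20 and -0.29 with 0 called, and 3 and 6 of them had an unadjusted p under 0.05. These medians are close to those of the subunits, -0.22 and -0.25. In bulk ventricular RNA, fewer cardiomyocytes and less RNA per cardiomyocyte cannot be told apart, and the part of either in the subunits' values was not tested.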

How the data were processed

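Left ventricular RNA of 16 samples, 4 per group as given by the sample titles, was hybridised to Affymetrix mouse genome arrays. Per the submitters' processing notes, the authors used GCOS 1.4 for the deposited linear signal intensities, whose trimmed mean (2nd to 98th percentile) was 500 on every array. The 10th percentile, 11.9, served as a floor before log2 was taken without further normalization. Each gene was represented by its single-gene probe set with the highest mean, and the dimmest 40% of genes were left out. Limma 3.58.1 (R 4.3.3) was fitted over 10916 genes with 1 coefficient per group, two-sided, with Benjamini-Hochberg adjustment, and errors are its standard errors. The fit was tested on simulated data. The number of arrays limits the precision.

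The members and all lists were chosen with earlier results of these data known. Array values are given for members called in a comparison, with its smallest p or with its highest or lowest fold change. Of other lists, called genes (up to 4) or the 2 with the smallest p could be named; Ppargc1a and some members' ranges were added after their values were seen.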

Additional observations from a re-analysis of the deposited data

Results flagged for a closer look

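Within groups of 4, an array stood apart from the other 3 by Dixon's test in 6 of 140 combinations of subunit and group, where chance flags about 1 in 20. In 4 of the 6, WT TAC replicate 1 was lowest: Ndufa1 was at 15.41 beside 15.51 to 15.53, Ndufs5 at 14.59 beside 14.73 to 14.76, Ndufs7 at 15.02 beside 15.12 to 15.13, and Ndufv2 at 15.36 beside 15.49 to 15.51 on the log2 scale. Ndufa5 was low on WT sham replicate 1, at 14.67 beside 14.90 to 14.92. Ndufb6 was high on KO TAC replicate 1, at 14.51 beside 13.93 to 13.95 on the other KO TAC arrays, the widest of these gaps; that array also had the highest subunit mean of its group.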

How the results depend on the processing

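Counts of subunits called for KO TAC against KO sham and against WT TAC, 1 and 2 at the main setting, depended on the processing. They were 0 and 0 after median centring, with no filter on dim genes, with only the arrays compared, with a gene's probe sets averaged, and without the arrays of most extreme spike-in signal (KO TAC replicates 3 and 2, WT TAC replicate 3). They were 2 and 4 with the dimmest 60% left out, where 2.2% and 2.18% of all tested genes were called lower, and 3 and 12 with limma's trend and robust options, where 1.75% and 1.9% were, beside 0.98% and 1.14% at the main setting. They were 1 and 0 after quantile normalization, 1 and 1 without _x_at and _s_at probe sets, and 1 and 2 with a floor at the 25th percentile. Testing each probe set separately, an alternative chosen after seeing the data, gave 0 and 0. With the replicate number as a block they were 1 and 0. In 5 of 24 same-numbered pairs the correlation of the arrays' deviations was over 0.1, and over all pairs it ranged from -0.19 to 0.14. Of 16 arrays, 7 matched their own number best. The labels do not say whether the numbers pair the samples, and these values do not settle it. With 1 array left out the counts ran from 0 to 2 and from 0 to 4. The members' median log2 fold change after centring and after quantile normalization was -0.02 and -0.05 for KO sham against WT sham, -0.04 and -0.06 for TAC in WT, -0.09 and -0.06 for TAC in KO, -0.06 and -0.07 for KO against WT in TAC, and -0.03 and -0.02 for the difference between TAC responses. Without those 3 arrays it was -0.13 for TAC in KO. With 1 array left out, the medians were 0.00 to 0.10, 0.06 to 0.09, -0.27 to -0.17, -0.30 to -0.20 and -0.34 to -0.23 in that order. Of 151 values under alternatives for single genes called at the main setting, 79 stayed called and 72 lost the call; the other 161 belong to genes not called there, and none of these was called. Of 207 counts and medians under alternatives, 42 moved.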

Other observations

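Ndufab1 had a second bright probe set, with a mean log2 signal of 11.83, whose fold change was -0.85 for KO TAC against KO sham and -1.05 against WT TAC (adjusted p = 0.352 and 0.221 when each probe set was tested with limma). The gene's brightest probe set gave -0.22 and -0.27.

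Ndufb4, outside the tests, ranged over its dim probe set from 3.57 to 6.89 in WT sham, 4.76 to 6.97 in WT TAC, 5.76 to 6.75 in KO sham and 3.57 to 5.94 in KO TAC on the log2 scale, and 3.57 is the floor.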
